A study of Mus musculus with 2 samples.

Results

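The Mir379 to Mir410 cluster is a run of miRNA genes on the plus strand of mouse chromosome 12, within the imprinted Dlk1-Dio3 region. Its members were taken by position alone: every miRNA gene of GENCODE M21 (mm10 assembly) on that strand whose start and end lie within chr12:109709060-109743795. By this rule 38 of the 2202 miRNA genes in the count files were members, over 34.736 kb. MicroRNAs of at most 30 nt had been sequenced from hippocampal tissue of female mice of the strain B6CASTF1/J, 18 to 20 months old, in 2 libraries (replicates 1 and 2) that form 1 group. The label calls the tissue a layer of hippocampus and does not say which layer. This strain name stands for the first generation of a cross between a B6 mother and a CAST father, and no treatment, edited allele or second genotype was given. The tissue records carry animal numbers 6 and 7 but name the same donor record, so the spread between the libraries may be partly technical.

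MicroRNAs are cut from hairpin precursors, and each hairpin can give a mature miRNA from its 5′ arm (5p) and its 3′ arm (3p). Bases 2 to 8 of a mature miRNA, the seed, pair with messenger RNAs that are then repressed. The genes of this cluster are transcribed together from the maternal chromosome, which in this cross comes from B6, and the paternal copy is silenced by imprinting. The cluster is specific to placental mammals, is prominent in brain, and is known for members that act on dendrites and synapses. Mir134 limits dendritic spine size through Limk1, Mir485 takes part in the scaling of synapses to activity, and Mir329 and Mir381 act with Mir134 in activity-dependent dendrite growth. Mir369, Mir496a and Mir543 are known to act on N-cadherin in neurogenesis. Allele of origin was not analysed here.

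The sequences below are mature arms of the members that held most of the cluster's counts, so that the levels can be read beside the RNAs they belong to. They are from RefSeq (GRCm38.p6) and are written 5′ to 3′ with the seed in capitals. The RefSeq table held 69 mature arms of 37 members, and both arms of 32 of them. For Mir487b it held only the 5p arm and for Mir485 only the 3p arm. The levels of Mir487b and Mir485 can therefore belong to an arm that is not printed. The files count whole hairpin genes, so they do not show which arm a read came from.
miR-411-5p: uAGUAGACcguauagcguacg
miR-411-3p: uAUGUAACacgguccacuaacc
miR-487b-5p: uGGUUAUCccuguccucuucg
miR-382-5p: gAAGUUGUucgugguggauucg
miR-382-3p: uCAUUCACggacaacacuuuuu
miR-379-5p: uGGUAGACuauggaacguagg
miR-379-3p: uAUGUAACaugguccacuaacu
miR-369-5p: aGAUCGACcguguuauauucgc
miR-369-3p: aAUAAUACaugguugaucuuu
miR-541-5p: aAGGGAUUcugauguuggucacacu
miR-541-3p: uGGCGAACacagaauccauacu
miR-485-3p: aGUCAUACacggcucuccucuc
miR-376a-5p: gGUAGAUUcuccuucuaugagu
miR-376a-3p: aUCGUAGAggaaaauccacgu

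Most seeds of the listed arms were found in 1 member only. No second arm of Mir376c, Mir487b, Mir539, Mir485 or Mir453 is in the table, so further shared seeds can be missed. Among all 69 arms there were 63 distinct seeds, and 52 of these were found in no mature arm outside the cluster among the 1669 other arms of the table. Where members did share a seed, they did so in pairs: 6 groups of 2 genes, with 11 members in all. The arms of these groups are shown here because a target site cannot tell the members of a group apart by the seed. Mir379 is in 2 groups, by its 3p arm with Mir411 and by its 5p arm with Mir1193.
miR-1193-5p: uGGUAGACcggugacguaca
miR-376b-5p: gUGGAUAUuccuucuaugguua
miR-376c-5p: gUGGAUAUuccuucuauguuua
miR-410-5p: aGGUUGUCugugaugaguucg
miR-494-5p: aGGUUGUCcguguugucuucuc
miR-453: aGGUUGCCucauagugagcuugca
miR-496a-5p: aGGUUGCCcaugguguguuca
miR-758-5p: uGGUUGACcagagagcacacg
miR-1197-5p: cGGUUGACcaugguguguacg

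Other members carried seeds that differed by a single base. Positions are counted from 1 at the 5′ end of the mature arm, and the first-named arm's base comes first. The 5p arms of Mir379 and Mir411 differed by G2A, whereas their 3p seeds were identical. The 3p arms of Mir376b and Mir376a differed by A4G, in a miRNA family known for A-to-I editing within the seed. The 3p arms of Mir300 and Mir381 differed by G4A, those of Mir485 and Mir154 by G2A, and the 5p arms of Mir495 and Mir382 by C8U. The arms not printed above are the following.
miR-376b-3p: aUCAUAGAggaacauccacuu
miR-300-3p: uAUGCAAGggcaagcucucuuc
miR-381-3p: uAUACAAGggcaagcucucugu
miR-154-3p: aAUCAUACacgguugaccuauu
miR-495-5p: gAAGUUGCccauguuauuuuucg

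The cluster was broadly active in this tissue. Levels are given as sense CPM, a gene's sense counts scaled to a library total of 1000000 sense counts in miRNA genes. These totals were 2255838 in replicate 1 and 4521208 in replicate 2. The members held 130312 counts in replicate 1, or 5.78% of the library (exact 95% binomial interval 5.75 to 5.81), and 230194 counts in replicate 2, or 5.09% (5.07 to 5.11). The mean share was 5.43% ± 0.485 (SD, n = 2). The libraries thus differed by more than counting error, which is all that the intervals cover, since reads made by PCR are not independent molecules. Of the 38 members, 34 (89.5%) stood at 1 CPM or above in each library, where 20.3% of the genes in the files did. At 100 CPM in both libraries stood 25 members (65.8%, against 8.49% of all genes), and at 1000 CPM stood 11 (28.9%, against 3.86%). Among the 100 most abundant miRNA genes of the files, 13 were members.

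The depth and tissue of the libraries bear on these levels as follows. Reads that fit several places are not in the gene counts, and they made up 36.2% of all reads in replicate 1 and 47.9% in replicate 2. The upper limit behind a count of 0, taken as 3 counts, was 1.33 CPM in replicate 1 and 0.664 CPM in replicate 2. Of a list of 12 neuronal miRNA genes, 8 reached 1 CPM in both libraries, with summed levels of 67192 and 52339 CPM in replicates 1 and 2. Of these 8, Mir132 (38949 and 18329 CPM), Mir138-1, Mir138-2 and Mir9-3 were lower in replicate 2. Mir128-1, Mir128-2, Mir137 and Mir9-1 were higher in replicate 2. The 4 astrocyte or progenitor genes summed to 27682 and 47411 CPM, the 3 microglial genes to 9670.5 and 4375 CPM, the 3 vascular genes to 29696 and 38353 CPM and the 2 oligodendrocyte genes to 6822 and 5391 CPM. Some genes went against the sum of their list. Mir31 of the astrocyte list (1171 and 472 CPM) and Mir145a of the vascular list (267 and 255 CPM) were lower in replicate 2. Mir146 of the microglial list was higher in replicate 2 (701 and 798 CPM). The other genes of these lists moved with their sums. Of the 4 neuronal genes that did not reach 1 CPM in both, the copies of Mir124a stood between 0 and 2.88 CPM and Mir9-2 at 0.887 and 1.33 CPM; these genes have copies elsewhere in the genome. The 4 muscle genes of the check, Mir1a-1, Mir1a-2, Mir133a-1 and Mir133a-2, had no count, and Mir122 of liver stood at 14.6 and 43.1 CPM. Mir375, listed for pancreas and endocrine tissue, stood at 613 and 308 CPM. The 3 erythroid genes summed to 138 and 136 CPM. The 3 genes listed for choroid plexus, a tissue next to the hippocampus, summed to 2633 and 1166 CPM, 2 of them at 1 CPM or more in both libraries. The part of these lists in the cluster's levels, and which cells its counts came from, was not tested, and in bulk tissue fewer cells of a type and less RNA per cell cannot be told apart.

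**Figure D1:**
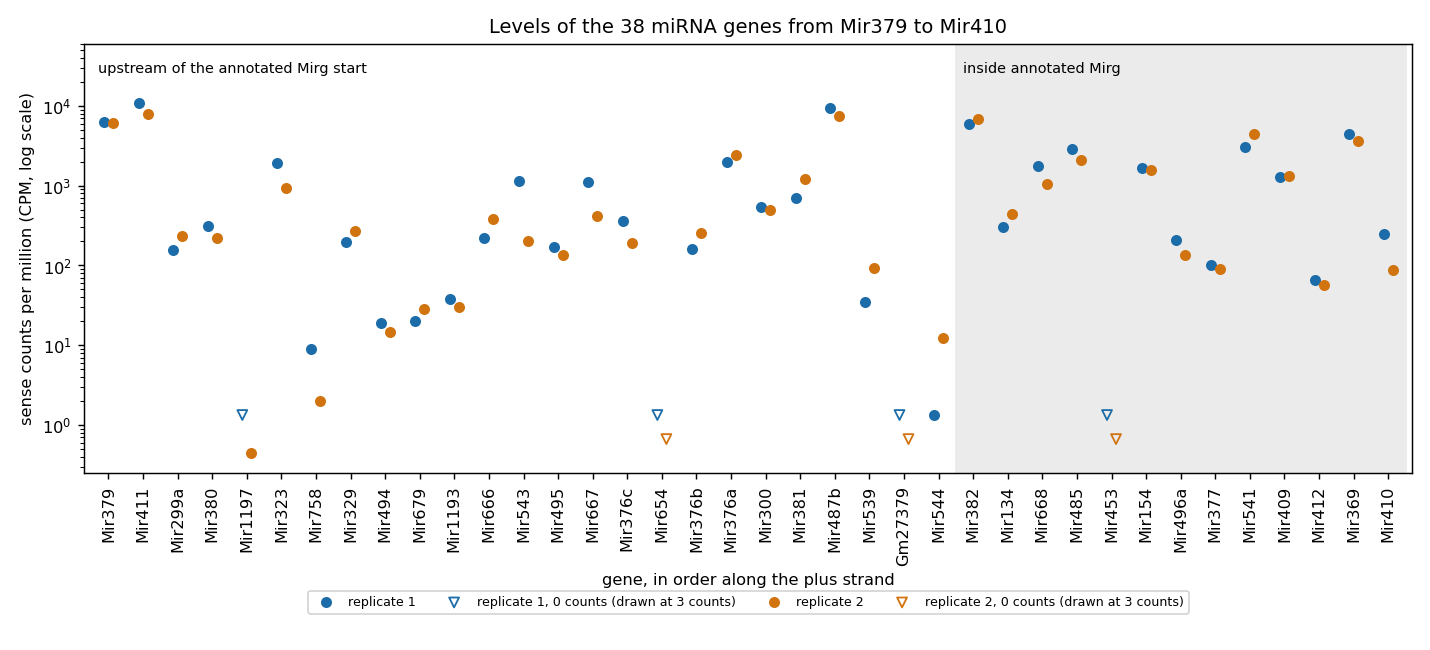
Sense CPM (log scale) of the 38 genes in their order along the plus strand, 1 point per library, with open triangles at the level of 3 counts for genes with no count in a library and grey shading for genes inside the annotated Mirg transcript. High and low genes alternate along the whole run, from Mir411 at 10792 and 7875 CPM to 3 genes with no count in either library.

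A few genes held most of the cluster's counts. The 4 highest, Mir411, Mir487b, Mir382 and Mir379, took 56.3% of the cluster's counts in replicate 1 and 55.7% in replicate 2. The 8 highest took 77.8% and 80.6%. The same 4 and the same 8 genes led both libraries, although their order within the 8 differed.

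Mir411 (ENSMUSG00000065477.3, chr12:109710175-109710256) was the most abundant member in each library. It had 24344 counts in replicate 1, or 10792 CPM, and 35603 counts in replicate 2, or 7875 CPM, for a mean of 9333 ± 2063 CPM (SD, n = 2). That placed it at rank 23 among all miRNA genes of the files. Mir487b (chr12:109727333-109727414) followed with 9420 and 7596 CPM in replicates 1 and 2, a mean of 8508 ± 1289.6 CPM. Mir411 was the higher of the pair within each library, but the ranges over both libraries overlapped.

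Mir382 and Mir379 formed the next level, below Mir487b in both libraries. Mir382 (chr12:109733771-109733846) was at 5976 and 6793 CPM in replicates 1 and 2, a mean of 6385 ± 578 CPM. Mir379 (ENSMUSG00000065498.4, chr12:109709060-109709125), the first gene of the cluster, was at 6307 and 6082 CPM, a mean of 6195 ± 159 CPM. Its library values differed by 1.04-fold, the closest among the 8 highest members, and they lay inside the range of Mir382.

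Mir369 and Mir541, near the other end of the cluster, came next and overlapped in their ranges. Mir369 (chr12:109743418-109743496) stood at 4504 and 3644 CPM in replicates 1 and 2, a mean of 4074 ± 608 CPM. Mir541 (chr12:109742409-109742498), which is known to act on synapsin I in neurites, stood at 3056 and 4470.3 CPM, a mean of 3763 ± 1000.3 CPM. It was thus the higher of the pair in replicate 2 and the lower in replicate 1.

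Mir485 and Mir376a also overlapped. Mir485 (chr12:109734902-109734974) had 2924 and 2114 CPM in replicates 1 and 2, a mean of 2519 ± 573 CPM. Mir376a (chr12:109723781-109723848), of the edited family named above, had 1977 and 2439 CPM, a mean of 2208 ± 326 CPM. Both lay above the next gene, Mir154, in each library.

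Mir154, Mir323, Mir668 and Mir409 filled the range from 1306 to 1619 CPM in the mean. Mir154 (chr12:109738433-109738498) was at 1665 and 1573 CPM in replicates 1 and 2, a mean of 1619 ± 65.0 CPM, and Mir409 (chr12:109743158-109743236) was at 1299.7 and 1312 CPM, a mean of 1306 ± 9.01 CPM. Mir323 (chr12:109712508-109712593) was at 1943 and 944 CPM, a mean of 1443 ± 707 CPM. Mir668 (chr12:109734732-109734797) was at 1751 and 1059 CPM, a mean of 1405 ± 489 CPM. Mir154 and Mir409 were close between the libraries, while Mir323 and Mir668 were lower in replicate 2, and the ranges of neighbours in this order overlapped throughout.

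The last 4 of the 16 members with the highest means lay between 523 and 958 CPM. Mir381 (chr12:109726822-109726896) had 710.2 CPM in replicate 1 and 1205 CPM in replicate 2, a mean of 958 ± 349.9 CPM. Mir667 (chr12:109720006-109720097) had 1126 and 423 CPM, a mean of 775 ± 497 CPM, and Mir543 (chr12:109717258-109717333) had 1139.7 and 201 CPM, a mean of 670.3 ± 664 CPM. Mir300 (chr12:109724313-109724391) had 544 and 503 CPM, a mean of 523 ± 29.1 CPM. For Mir543 the SD was as large as the mean, so its place in the order rests on replicate 1.

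Over these 16 genes and the next in rank, the ranges spanned by both libraries did not overlap for 6 of 16 neighbouring pairs and overlapped for 10. The 6 separated steps were Mir487b over Mir382, Mir379 over Mir369, Mir541 over Mir485, Mir376a over Mir154, Mir409 over Mir381 and Mir300 over Mir134. Across the 34 members with counts in both libraries, Spearman's rho between the libraries was 0.938 and Pearson's r of log2 CPM was 0.944. These points are genes of 1 transcribed region in the same 2 libraries, and the correlations are given as descriptions only.

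Of the members named above or here for a known action on neurites, dendrites or synapses, means ranged from 154 CPM for Mir495 to 3763 CPM for Mir541. Mir485 and Mir541 were among the 8 highest and Mir381 among the 16 highest. Mir134, the best known of them, was lower, with 301 and 443 CPM in replicates 1 and 2. Mir382 next to it was 19.8-fold and 15.3-fold higher in those libraries. Mir329 stood at 198 and 274 CPM. Mir495, which is known to act on Bdnf, stood at 173 and 136 CPM.

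In all, 12 members had a mean of 1000 CPM or more, 14 lay between 154 and 958 CPM, and 9 lay below 100 CPM with at least a count. The middle class comprised Mir381, Mir667, Mir543, Mir300, Mir134, Mir666, Mir376c, Mir380, Mir329, Mir376b, Mir299a, Mir496a, Mir410 and Mir495. The lowest class comprised Mir377, Mir539, Mir412, Mir1193, Mir679, Mir494, Mir544, Mir758 and Mir1197.

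The lowest members were at the edge of detection. Mir544 (chr12:109729325-109729402) had 3 counts in replicate 1, which is 1.33 CPM with an exact 95% Poisson interval of 0.274 to 3.89. In replicate 2 it had 55 counts and 12.2 CPM (9.16 to 15.8). Mir758 (chr12:109712810-109712890) had 20 counts, or 8.87 CPM (5.42 to 13.7), and 9 counts, or 1.99 CPM (0.910 to 3.78). Mir1197 (chr12:109712317-109712436) had 0 counts in replicate 1 and 2 counts in replicate 2, or 0.442 CPM. Mir544 was thus seen mainly in replicate 2 and Mir758 mainly in replicate 1, and Mir1197 was at or under the level that a count of 0 allows.

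No count in either library was found for Mir654 (chr12:109723218-109723301), Gm27379 (chr12:109728821-109728943) and Mir453 (chr12:109735619-109735700). Each of these 3 genes was therefore not detectable above 1.33 CPM in replicate 1 or 0.664 CPM in replicate 2. Mir654 and Mir453 have mature arms in the RefSeq table.

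Level did not follow position along the cluster. Spearman's rho between order and log2(CPM + 1) was 0.082 over the 38 members, as a description. Neighbouring genes differed by a median of 3.42 in log2(CPM + 1) over 37 pairs, and all 703 pairs of members differed by a median of 3.55. Neighbours were thus about as unlike as members picked from anywhere in the run. The gaps between neighbours ranged from 20 to 4368 bp, with a median of 522 bp.

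Some of the widest steps fell between genes that lie close together. Mir487b was 272-fold higher than the next gene, Mir539, in replicate 1 and 82.6-fold higher in replicate 2. Mir323 exceeded its neighbour Mir758 by 219-fold and 474-fold, although the latter rests on the 20 and 9 counts of Mir758. Mir411 exceeded Mir299a by 68.2-fold and 33.8-fold. All 3 steps held in both libraries.

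The same was seen at the far end, where Mir409, Mir412, Mir369 and Mir410 follow each other closely. Mir412 (chr12:109743289-109743368), at 66.1 and 57.5 CPM in replicates 1 and 2, lay between 2 high genes. Mir409 was 19.7-fold and 22.8-fold above it, and Mir369 was 68.2-fold and 63.4-fold above it. Mir410, the last gene, was 18.3-fold and 41.0-fold below Mir369. In the Mir376 group, Mir376a was 12.2-fold and 9.53-fold above Mir376b, its upstream neighbour. CPM of different hairpins can also differ with adapter ligation and with reads lost to several places, so these folds are those of reads, not of molecules.

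The annotated part of Mirg, the noncoding transcript that carries the cluster, begins at 109729764, 20.704 kb after the first member, and ends at 109749460. By the GENCODE M21 annotation 25 members lie upstream of that start and in no other gene, and 13 lie inside it. The 25 upstream members took 61.7% of the cluster's counts in replicate 1 and 57.2% in replicate 2, and their median levels were 198 and 218 CPM. The 13 inside took 38.3% and 42.8%, with median levels of 1299.7 and 1059 CPM. At 1000 CPM in both libraries stood 4 of the 25 upstream and 7 of the 13 inside. This difference in medians was not tested, since members were chosen with earlier results known.

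Inside Mirg, 4 members lie within an annotated exon, namely Mir134, Mir485, Mir377 and Mir410. Another 4 cross an exon's edge, namely Mir382, Mir668, Mir412 and Mir369. The other 5, Mir453, Mir154, Mir496a, Mir541 and Mir409, are intronic. Each of the 3 places held both high and low members: Mir485 and Mir377 in exons, Mir382 and Mir412 at exon edges, Mir541 and Mir453 in introns.

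The counts came from the plus strand. Over all members, antisense counts numbered 1 in replicate 1, at Mir376b, and 0 in replicate 2. An annotated miRNA gene lies on the opposite strand of 5 members: Mir299b at Mir299a, Gm25750 at Mir380, Gm25252 at Mir376a, Gm44322 at Mir539 and Gm24321 at Mir409. These 5 opposite genes had 0 sense counts. The 5 members themselves held 8542 sense counts in replicate 1 and 19415 in replicate 2, or 6.56% and 8.43% of the cluster. In the files' column without strand the same 5 members read 0, so the sense column was used throughout.

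The highest summed level of a shared seed belonged to AUGUAAC, the 3p seed of Mir379 and Mir411. These genes summed to 17099 CPM in replicate 1 and 13957 CPM in replicate 2. The 5p seed GGUAGAC of Mir379 and Mir1193 summed to 6345 and 6113 CPM, nearly all of it from Mir379, since Mir1193 (chr12:109715671-109715791) stood at 38.1 and 30.1 CPM. A sum is not the level of a seed's arm, because the counts of a gene include both of its arms and leave out reads that fit several places.

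The other 4 shared seeds were at lower summed levels. Seed UGGAUAU of Mir376c and Mir376b summed to 518 and 446 CPM in replicates 1 and 2. Within it Mir376c (chr12:109722718-109722803) had 356 and 189.8 CPM and Mir376b (chr12:109723458-109723539) had 162 and 256 CPM. The order of these genes thus turned over between the libraries, while their sum changed less than either gene.

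Seed GGUUGUC of Mir410 and Mir494 summed to 265 and 104 CPM in replicates 1 and 2. Mir410 (chr12:109743715-109743795) gave 246 and 88.9 CPM of this and Mir494 (chr12:109715318-109715402) gave 19.1 and 14.8 CPM. Seed GGUUGCC came from Mir496a (chr12:109739119-109739197) alone, at 207 and 134 CPM, since its partner Mir453 had no count. Seed GGUUGAC of Mir758 and Mir1197 summed to 8.87 and 2.43 CPM. With a shorter seed of bases 2 to 7 the groups also took in Mir495 with Mir382, and Mir329 with Mir377.

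Of the 63 seeds, 11 were found in arms of miRNA genes that are not members, called genes elsewhere here. For 6 of these seeds, that of miR-411-5p among them, the genes elsewhere that are in the files had no count. The seed of miR-299a-3p is also among these 6, but its other gene, Mir299b, lies on the opposite strand at Mir299a itself. For the seed of miR-495-3p this covers Mir1192 only, since the gene of the other arm with that seed, miR-12200-5p, was not analysed here. For the other 5, genes on both sides were counted, and their arms are printed here so that the shared seeds can be seen. The shares given next are of summed gene counts, which include both arms of each gene. They are therefore not shares of the arms that carry the seed.
miR-329-3p: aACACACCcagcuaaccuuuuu
miR-362-3p: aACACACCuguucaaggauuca
miR-410-3p: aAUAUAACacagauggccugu
miR-344d-3p: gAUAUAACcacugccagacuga
miR-344e-3p: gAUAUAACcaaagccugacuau
miR-377-5p: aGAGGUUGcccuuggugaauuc
miR-672-5p: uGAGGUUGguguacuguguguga
miR-412-3p: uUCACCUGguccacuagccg
miR-1983: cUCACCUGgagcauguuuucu
miR-1193-3p: uAGGUCACccguuuuacuauc
miR-370-5p: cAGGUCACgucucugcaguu

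The cluster's gene held most counts for 2 of these 5 seeds. Mir329 made up 89.4% of the summed level with Mir362 in replicate 1 and 91.4% in replicate 2. Mir410 made up 89.1% and 86.5% of the sum with the genes Mir344d-1, Mir344d-2, Mir344d-3 and Mir344e. The Mir344d genes carry the same arm, and reads that fit several places are not counted. Their level can thus be too low and the share of Mir410 too high. For the other 3 seeds the gene elsewhere led. Mir377 made up 21.7% and 17.2% of the sum with Mir672, and Mir412 made up 17.8% and 14.8% of the sum with Mir1983. Mir1193 made up 1.79% and 4.25% of the sum with Mir370, a gene of the same imprinted region that lies upstream of the cluster.

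**Figure D2:**
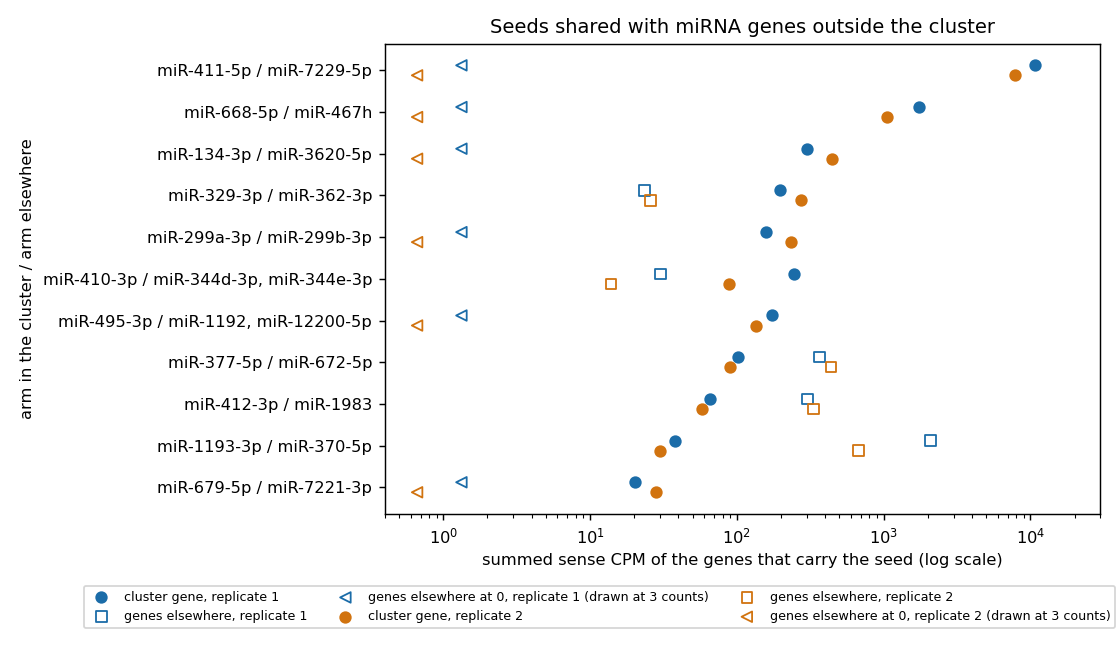
Summed sense CPM (log scale) of the genes that carry each of the 11 shared seeds, filled circles for the cluster's gene and open squares for the genes elsewhere, with triangles at the level of 3 counts where the genes elsewhere had no count, blue for replicate 1 and orange for replicate 2. The cluster's gene lies to the right for 8 seeds and to the left for those of miR-377-5p, miR-412-3p and miR-1193-3p.

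With 2 libraries of 1 group, the remaining comparison is between the libraries. Each gene whose mean level was at least 1 CPM was given an exact conditional binomial test, two-sided, on its counts, with Benjamini-Hochberg adjustment over 495 genes. A gene was called at an adjusted p under 0.05 and a change of 2-fold or more. With 1 library on each side this compares reads and not conditions, and it has no replicate check.

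Of the 34 members tested, 7 (20.6%) were called, where 17.6% of all genes tested were called. Higher in replicate 2 were 2 members, where 3.84% of all genes were called, and lower in replicate 2 were 5 members, where 13.7% of all genes were called. At this 2-fold minimum the cluster's share was close to that of the background. With no fold minimum 27 of the 34 members (79.4%) and 53.5% of all genes tested passed, and at 1.5-fold 13 members (38.2%) and 28.5% of all genes. The members tested had median levels of 336 and 328 CPM in replicates 1 and 2, against 40.8 and 38.04 CPM over all genes tested, and the part of this depth in the shares was not tested. Between the libraries 27 members differed by less than 2-fold, and 21 of these by less than 1.5-fold. The median log2 ratio (replicate 2 over replicate 1) was -0.18 over the members and -0.19 over all genes tested. The median size of the log2 ratio, without its sign, was 0.50 over the members and 0.51 over all genes.

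**Figure D3:**
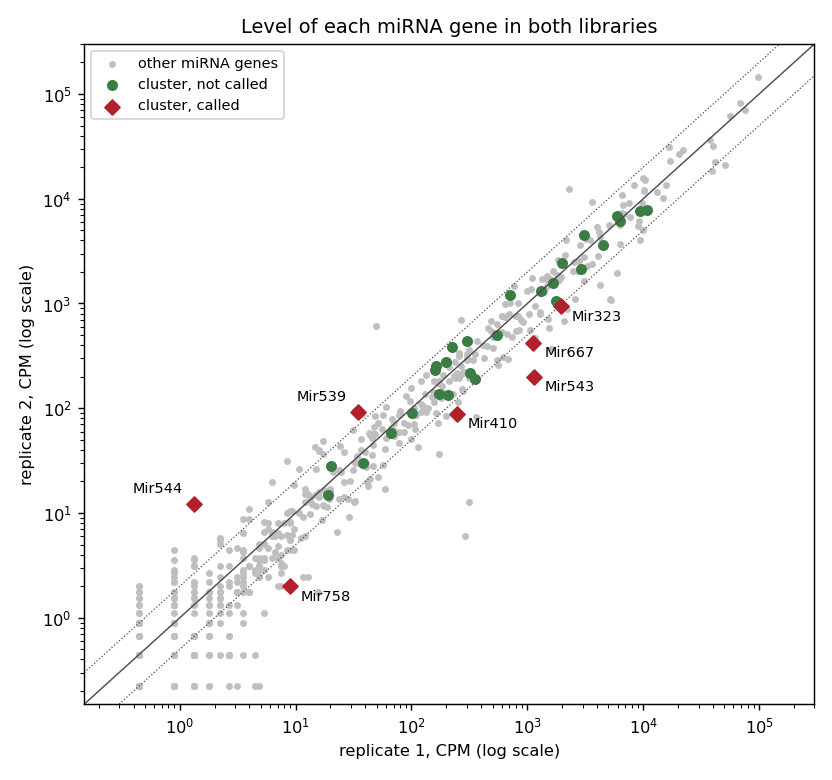
CPM of each miRNA gene in replicate 1 (horizontal, log scale) against replicate 2 (vertical, log scale), with cluster genes in green where not called and as red diamonds where called, and other genes in grey. The solid line marks equal levels and the dotted lines a 2-fold difference; 7 cluster genes lie outside them.

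The 7 called members had means between 5.43 CPM (Mir758) and 1443 CPM (Mir323), below those of the 9 highest members. Of those 9, 0 were called, where 17.6% of all genes tested were called. Shares called among all genes of like level were not compared. Mir543, with 2571 counts in replicate 1 and 908 in replicate 2, was 5.67-fold lower in replicate 2 (95% interval 5.26 to 6.13). Mir667, with 2541 and 1912 counts, was 2.66-fold lower (2.51 to 2.83), and Mir323, with 4383 and 4266 counts, was 2.06-fold lower (1.97 to 2.15). These 3 genes are among the 16 highest members, and their intervals are narrow because of their counts. The intervals cover counting error only.

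Mir410, with 554 and 402 counts, was 2.76-fold lower in replicate 2 (2.42 to 3.15, exact binomial test with adjusted p = 6.83e-54). Mir758 was 4.45-fold lower (1.94 to 11.1, adjusted p = 0.000253 by the exact test). Mir539 (chr12:109728129-109728202) went the other way, from 78 counts and 34.6 CPM to 416 counts and 92.0 CPM, 2.66-fold higher (2.09 to 3.43, exact test with adjusted p = 8.4e-18). Mir544 was 9.15-fold higher (2.97 to 45.7, exact test with adjusted p = 1.22e-06). The intervals of Mir758 and Mir544 are wide, and these genes had few counts in both libraries.

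These calls rest on counting error as the measure of error. A second test, given next, took its error from the same 2 libraries that it compared. Few calls were therefore built in, and it cannot decide which members differ. Where edgeR's exactTest took the common spread between the libraries (a biological coefficient of variation of 38.9%) as the error, 0 members were called at an adjusted p under 0.05, and 3 members (Mir543, Mir544 and Mir758) had an unadjusted p under 0.05. Over all genes that test called 3 genes (0.606%), with 22 at an unadjusted p under 0.05. Mir323 was also not called when the libraries were scaled by edgeR's TMM factors or by DESeq2 size factors, which raised the log2 ratio of every gene by 0.12 and 0.19. The reads listed as unmapped also differed between the libraries, at 29.0% in replicate 1 and 11.2% in replicate 2; the part of this in the differences was not tested.

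**Figure D4:**
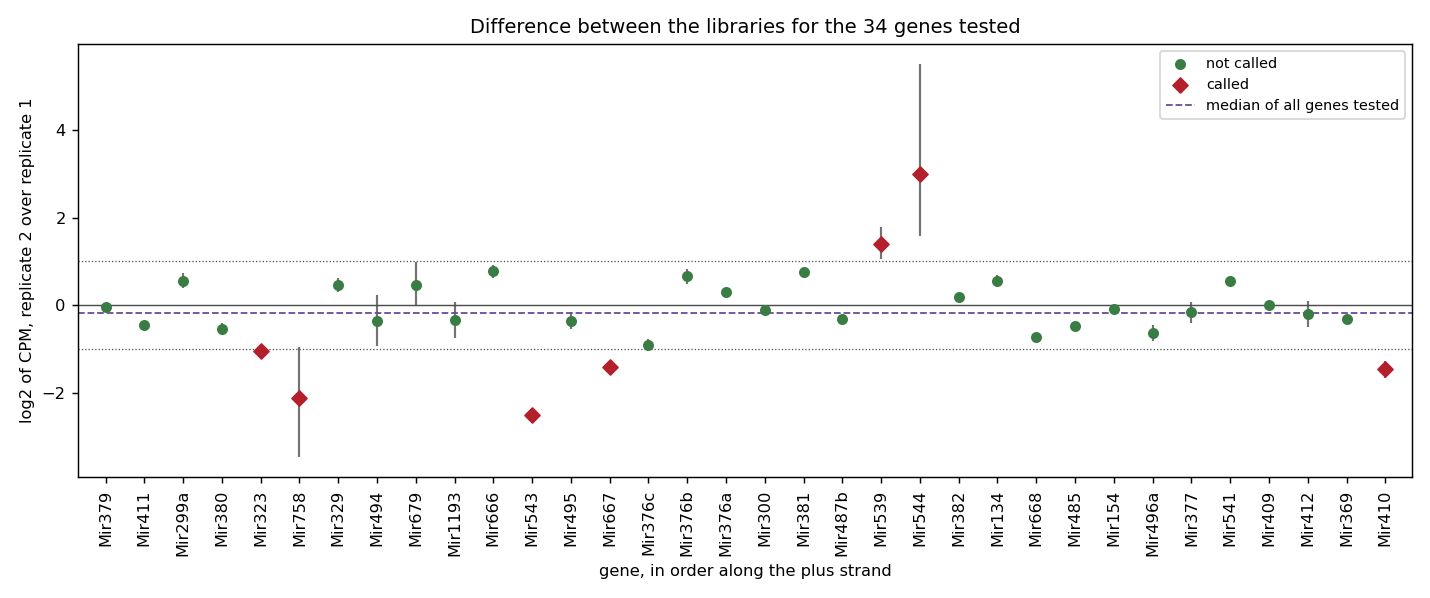
Log2 ratio of CPM, replicate 2 over replicate 1, for the 34 genes tested in their order along the plus strand; bars are exact 95% intervals of the counting error, red diamonds mark called genes, dotted lines 2-fold and the dashed line the median of all genes tested. Genes above and below 0 are mixed along the run, from -2.50 for Mir543 to 2.98 for Mir544.

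The differences did not run in blocks along the cluster. Of the 34 members tested, 13 lay above 0 and 21 below. Of 33 neighbouring pairs of tested genes, 17 had log2 ratios on the same side of 0. Mir543, the member that was furthest below, lies between Mir666, with a log2 ratio of 0.77, and Mir495, with -0.35. Mir541, at 0.55, and Mir409, at 0.014, stand a short way before Mir410, at -1.47.

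The hairpins of the cluster had a median GC content of 43.5%, against 50.8% over all genes of the files and 52.7% over genes whose mean was at least 1 CPM. Their median length was 79 bases, against 89 over all genes and 81 over those at 1 CPM. Their median folding energy was -0.41 kcal/mol per base (RNAfold), against -0.37 and -0.43. Within the cluster, level was weakly related to these features: Spearman's rho was -0.25 with length, -0.084 with GC content and -0.22 with folding energy per base, over 38 members and as descriptions.

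The mature arms were 19 to 25 nt long, with a median of 22. They began with U in 29 of 69 arms (42.0%, against 41.2% of the other arms in the table) and with A in 26 (37.7%, against 24.985%). They began with C in 4 (5.80%, against 21.03%). Base 1 is known to help anchor a miRNA in Argonaute, which favours U and A.

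Members also shared motifs, searched in the mature arms on the RNA strand after the sequences had been seen. GGUNGACC was found in 8 of 69 member arms and in 0 of the other 1669, or in 0.460% of all arms. In 4 of the 8 arms it starts at base 2 and so holds the whole seed, and in 6 it overlaps the seed. GGUCCAC was found in 5 and 0, or in 0.288% of all arms, and overlaps the seed in 1 of the 5. The printed 3p arms of Mir379 and Mir411 hold GGUCCAC, as do those of Mir380, Mir758 and Mir412. ACACGG was found in 5 member arms and 2 others (0.403% of all arms), and ACAUGG in 5 and 21 (1.496%); each overlaps the seed in 4 of its 5 member arms. UGUG, a motif known from the loop end of many hairpins, was found in 23 of 38 member hairpins (60.5%) and in 51.4% of the 1859 hairpins of the same length range. Letters that match are a description, not a site.

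Longer stretches were shared within the cluster as well. Of 703 pairs of member hairpins, 24 shared 12 or more bases in a row, and 24 members were in such a pair. At 20 bases or more, where a short read can fit more than 1 place, 5 members shared a stretch. Mir376b and Mir376c shared 31 bases, 18 of them in a mature arm. Mir411 and Mir758 shared 21 bases, 12 of them in a mature arm of Mir411 and 9 in a mature arm of Mir758. Mir376b and Mir487b shared 20 bases, 9 of them in a mature arm of Mir376b and 0 in the listed arm of Mir487b. The hairpins of the longest shared stretches are shown from GENCODE M21, with the RefSeq mature arms in capitals.
Mir376c: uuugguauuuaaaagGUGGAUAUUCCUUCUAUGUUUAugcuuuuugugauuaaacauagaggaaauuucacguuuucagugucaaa
Mir376b: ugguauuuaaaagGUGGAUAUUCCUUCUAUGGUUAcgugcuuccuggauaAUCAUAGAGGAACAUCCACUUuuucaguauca
Mir411: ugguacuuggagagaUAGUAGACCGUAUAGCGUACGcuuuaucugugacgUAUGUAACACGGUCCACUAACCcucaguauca
Mir758: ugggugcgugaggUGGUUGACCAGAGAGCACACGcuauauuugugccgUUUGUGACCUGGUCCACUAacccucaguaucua

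In the pair of Mir376c and Mir376b the shared stretch runs from the 5′ flank into the 5p arm, so reads from that stretch alone cannot be placed. In the pair of Mir411 and Mir758 it runs from the 3p arm into the 3′ flank. No listed mature arm lies wholly within these stretches. The levels of these 5 genes can be too low, by an amount that was not tested. Without these genes the cluster's mean share was 3.60%, since Mir411 and Mir487b are among them.

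The rest of the imprinted region, taken on either strand from Mir1906-1 (start at 109544541) to Mir1247 (end at 110278129) without the members, held 29 miRNA genes. At 1 CPM or above in each library stood 18 of them, and 11 had no count. They took 6.57% of the counts in replicate 1 and 5.25% in replicate 2, a mean of 5.91% ± 0.933 (SD, n = 2). That was more than the cluster's 5.78% and 5.09% within each library, but the ranges over both libraries overlapped. A single gene, Mir127, stood at 40253 and 31736 CPM there, above every member of the cluster. Between the libraries 0 of its 18 tested genes were called higher in replicate 2 and 2 were called lower, Mir370 and Mir1247, with a median log2 ratio of -0.16. That median lay next to the cluster's -0.18 and the -0.19 of all genes.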

How the data were processed

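Raw counts were deposited for each library in a separate file, with columns for unstranded, sense and antisense counts per miRNA gene. Per the README files deposited with them, the authors used the mm10 assembly and GENCODE M21. Aligner and counter: not given in the sources used here. Library sizes and tests leave out the 4 rows that are totals of reads not assigned to a gene. Sense counts were scaled to CPM. Hairpins came from GENCODE M21, and mature arms from RefSeq (GRCm38.p6). A RefSeq hairpin overlapped 35 members by position, and 35 members had a RefSeq hairpin of identical sequence. Log2 ratios used a pseudocount of 0.5 counts, and log2 levels 1 CPM.

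Python 3.11.15, SciPy 1.17.1, ViennaRNA 2.7.2, edgeR 4.0.16 and DESeq2 1.42.0 (size factors only) were used. With 1 library on each side no replicated test exists, so the exact binomial test, which covers counting error only, was used after a check on simulated data. The simulated counts also held counting error only, so that check cannot speak for the spread between real libraries. The members, lists and tests were chosen with earlier results of these data known. Values are printed for the 16 members of highest mean CPM, called members, members of shared seeds, members under 1 CPM in either library and members with no count; a few others are named beside a neighbour or a known function, or as an example. Alternatives covered scaling, filters, fold minimum, strand, pseudocount, seed length and each library alone.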

Additional observations from a re-analysis of the deposited data

How the results depend on the processing

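The cluster's mean share of 5.43% was 1.82% per all reads in the file, 16.8% without the 20 most abundant other genes in the total and 3.60% without members sharing 20 bases, by construction of those totals. With each library alone it ranged from 5.09% to 5.78%, and 34 to 34 members reached 1 CPM. Members called numbered 13 of 34 at 1.5-fold, where 28.5% of all genes were called. Of these, 5 were higher in replicate 2 and 8 lower (14.7% and 23.5% of members tested, against 8.08% and 20.4% of all genes). With no fold minimum 27 were called, where 53.5% of all genes were. Of these, 11 were higher and 16 lower (32.4% and 47.1%, against 20.2% and 33.3%). By edgeR's exactTest with the spread between libraries as the error, 0 members (0 and 0) and 0.606% of all genes were called. A mean of 10 CPM or more left 1 called higher (3.1% of members tested, against 4.5% of all genes). The column without strand also left 1 called higher (3.45%, against 3.56%). The median log2 ratio of -0.18 was -0.060 with TMM factors, 0.0098 with DESeq2 size factors, -0.20 with a pseudocount of 5 counts, -0.16 over members with any count, -0.21 over those at 100 CPM or more and -0.29 without strand. The column without strand moved the level of 10 members by more than the SD and of 28 by less; TMM factors moved all 38 by less. Over all genes the calls split 19 higher and 68 lower, 26 and 51 with TMM, and 27 and 48 with DESeq2 factors. Few calls by exactTest were built in, since its error came from the same 2 libraries that it compared. No paired analysis was possible because the 2 libraries form 1 group. Leaving out a library leaves nothing to compare between libraries. Reads that fit several places are lost to the levels, and the cause of the differences between libraries was not tested.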
